A study of Homo sapiens with 12 samples.

Results

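The comparison described here is that of day 28 (d28) with day 0 (d0) in HEK293T cells, a human embryonic kidney line, by ATAC-Seq. It asks what remained changed 25 days after a pulse of AF4-MLL had ended, relative to the same cells before the pulse. The members are the gene entries of the deposited read count table with a mean raw count of at least 10 over the 3 samples of d0 and the 3 samples of d28. Entries for mitochondrially encoded genes (37) and for nuclear copies of mitochondrial genes (412) were set aside first. This left 14473 of 52889 entries, and each of them was tested. Cells of d0 constitutively expressed MLL-AF4 from the Sleeping Beauty vector pSBbi::MLL-AF4 and had been selected with puromycin as a pool. Per the paper, pSBTet::AF4-MLL was next brought into these cells by a transient transfection. By the same account they then received blasticidin and 1 µg/ml doxycycline for 48 h, which gave the day 3 (d3) cells. The paper reports that the second plasmid was then lost for lack of selection, while MLL-AF4 stayed expressed. Whether the loss was complete at d28 was not tested here. By their labels the d28 cells do not differ in genotype from those of d0. Mock cells carried the empty vector pSBTet-GP. The 12 samples comprise 3 biological replicates of each of the 4 groups. No sample carried MLL-AF4 through the same days in culture without the pulse. The pulse, the second transfection, the blasticidin and doxycycline treatment and the added time in culture therefore cannot be told apart.

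The translocation t(4;11) of infant and adult leukaemia joins *KMT2A* (MLL), which encodes a methyltransferase of histone H3, to *AFF1* (AF4), which encodes a scaffold of the complex that releases paused RNA polymerase II. Both reciprocal products, MLL-AF4 and AF4-MLL, act in the nucleus on chromatin and elongation. ATAC-Seq uses the Tn5 transposase, which inserts adapters into open DNA of isolated nuclei. The number of reads on a gene therefore follows how open that stretch of DNA is, and also how many copies of it the cells carry, and counts per gene do not separate the pair.

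Counts outside mitochondrial sequences were 369221, 325159 and 354729 in the d0 samples and 890458, 665983 and 312578 in the d28 samples. The spread at d28 was wide, and the third d28 sample lay below all d0 samples (exact permutation test, two-sided, p = 0.4). The share of mitochondrially encoded genes was 44.0% ± 1.83 (SD, n = 3) at d0 and 65.5% ± 2.61 (SD, n = 3) at d28, without overlap (exact permutation test, two-sided, p = 0.1, the smallest p that 3 against 3 samples allow, 0.129 after adjustment over 9 measures). All scaling was therefore done without these sequences. A floor of 3 counts equals at most 9.60e-04% of the counts outside mitochondrial sequences in a d28 sample, and covers counting error only. Normalised read counts below are counts scaled by TMM factors to the mean library of the 12 samples. Of 7 marker genes fixed for HEK293 cells, 6 were tested. The summed normalised read count of all 7 was 145 to 169 at d0 and 132 to 162 at d28. In the lists for B cells, T cells, myeloid cells, fibroblasts and epithelium, of 8 genes each, only 3, 2, 2, 2 and 3 were tested. No tested gene of these lists or of the HEK293 list was called, against 1.17% of all genes higher and 1.65% lower.

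*KMT2A* (ENSG00000118058), at chr11:118436492-118526832 in RefSeq GRCh38.p14 and carried in part by both transgenes, had normalised read counts of 45.4, 44.5 and 31.3 at d0 and of 89.8, 67.2 and 70.5 at d28. All d28 samples lay above all d0 samples. The gene rose by 0.95 ± 0.17 on the log2 scale (SE; edgeR quasi-likelihood test with Benjamini-Hochberg adjustment over all genes tested, adjusted p = 1.6e-04). In d3 cells, which carried both transgenes, the counts were 53.4, 60.5 and 64.7, between those of d0 and d28. The difference between d28 and d3 was 0.39 (adjusted p = 0.28). The call held without each of the 6 samples in turn. Of 21 neighbours of *KMT2A* on chromosome 11 in the list, 11 were tested and none was called. Over all genes tested, 1.17% were called higher and 1.65% lower, so none among 11 is near the background. The median log2 fold change of the neighbours was 0.08, and 6 of the 11 were positive. Whether reads from the integrated vector were counted on *KMT2A* was not tested. *AFF1* had 63.0, 80.3 and 66.6 at d0 and 62.9, 63.0 and 70.5 at d28. These groups overlapped, and the log2 fold change was -0.11 ± 0.16 (SE, edgeR, adjusted p = 0.79).

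At an adjusted p below 0.05, 169 genes (1.17% of those tested) were higher and 239 (1.65%) were lower at d28 than at d0, together 2.82%. Of the 408 called genes, 131 differed by more than 1 on the log2 scale, 74 upwards and 57 downwards. The median size of the difference was 0.84 among called genes and 0.24 among all genes tested. Called genes had a median of 34.6 raw counts per sample, against 23.3 for all genes tested. Normalised read counts of d0 and d28 did not overlap for 2979 genes (20.6% of those tested), 389 of the called genes among them. In the same fit, 1.89% of genes were called between d3 and d0 and 0.138% (20 genes) between d28 and d3. These comparisons share samples, so their values are given side by side below for single genes.

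**Figure D1:**
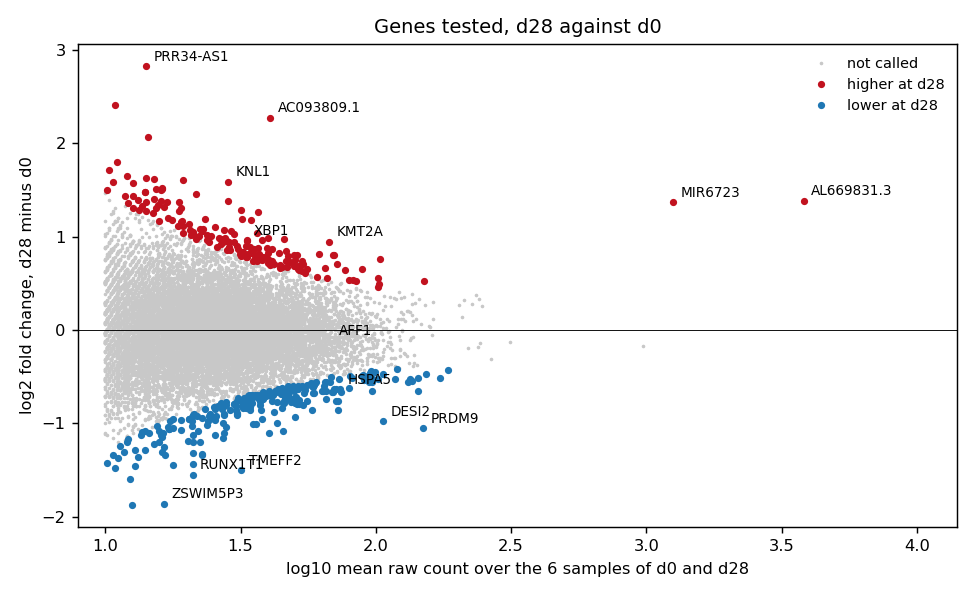
Each point is 1 of the 14473 genes, with the log10 of its mean raw count over the 6 samples on the x axis and its log2 fold change, d28 minus d0, on the y axis. The 169 genes higher at d28 (red) and the 239 lower at d28 (blue) lie at the outer edge of the cloud, which narrows as counts rise, and 2 entries with large counts, *MIR6723* and *AL669831.3*, stand far to the right.

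The number of called genes fell when any 1 of the 6 samples was left out. The counts of higher and lower genes were 60 and 103 without d0 replicate 1, 46 and 85 without d0 replicate 2, and 51 and 99 without d0 replicate 3. They were 58 and 57 without d28 replicate 1, the deepest sample, 88 and 116 without d28 replicate 2, and 112 and 175 without d28 replicate 3. With DESeq2, 11 genes were higher and 33 were lower among the 1846 that received an adjusted p-value. Among the 80 named genes that were called, 24 kept their call without each of the 6 samples in turn. Of the 24, *PRR34-AS1* was tested in 5 of these fits only, since it fell below the count minimum without d28 replicate 1. All 80 kept their direction in each other normalisation, filter and sample set where they received an adjusted p-value. The window offset described below is not counted here. Not all 80 received such a value in each setting. It was given to 29 of them with DESeq2 and to 63 with counts thinned to the lowest total. Without d28 replicate 1 it was given to 76, and without any 1 of the d0 samples to 79.

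Called genes were not spread evenly over the chromosomes. Chromosome 15 held 57 of the 169 higher genes and 2 of the 239 lower genes, and the median log2 fold change of its 481 tested genes was 0.40, against 0.01 for all genes tested. Chromosome 1, with 1400 tested genes, held 43 of the lower (3.07% of its genes) and 14 of the higher genes, and on chromosome 4 17 of 505 genes (3.37%) were lower. Counts were therefore summed over the tested genes of each 10 Mb window (GRCh38, gene positions from RefSeq GRCh38.p14), which gave 299 windows with at least 5 genes. By the same edgeR test, 71 windows (23.7%) were higher and 69 (23.1%) were lower at d28. With scaling by library sizes only, 45 were higher and 106 lower, since the TMM factors raise each window by a median of 0.061 on the log2 scale. The windows of the runs described below on chromosomes 1, 15, 17 and 22 kept their direction and their call under both scalings. Most of these differences were small, and 36 called windows went beyond 0.25 on the log2 scale, 22 upwards and 14 downwards. Windows rich in tested genes were more often higher. Among the 100 windows with 47 to 191 genes, 58 were higher and 8 lower, whereas among the 106 windows with 5 to 26 genes, 4 were higher and 39 lower.

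**Figure D2:**
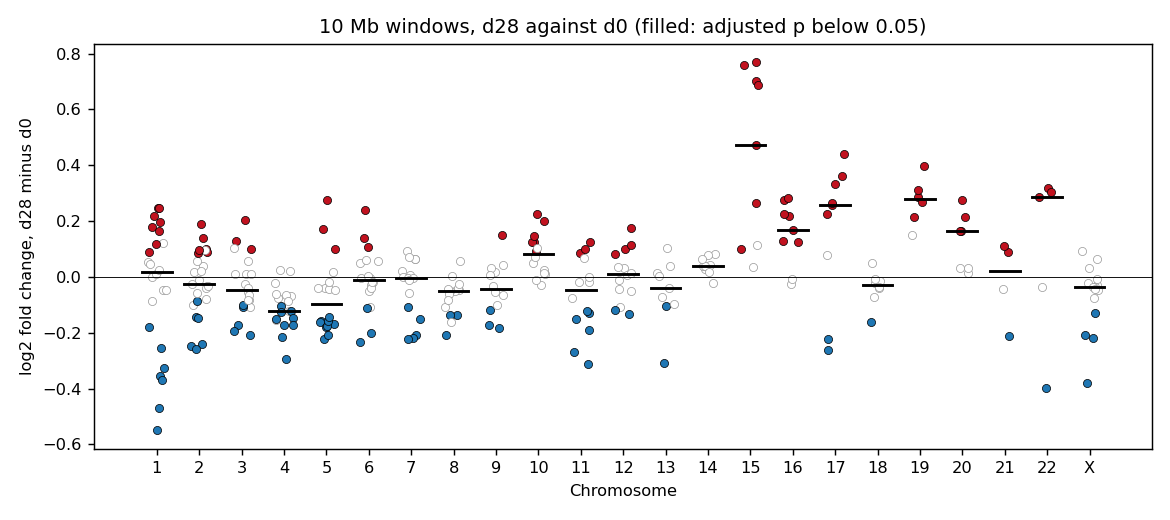
Each point is a 10 Mb window, placed by chromosome on the x axis (scattered sideways within a chromosome), with its log2 fold change, d28 minus d0, on the y axis. Filled points passed an adjusted p of 0.05 (red higher, blue lower) and bars are medians per chromosome. Chromosome 15 reaches 0.77, chromosome 1 reaches -0.55, and chromosomes 17 and 22 hold windows on both sides of 0.

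The strongest gain was a run of 5 adjacent windows on chromosome 15, from 20 to 70 Mb, with 261 tested genes. Their share of all counts on tested genes was 1.15%, 1.16% and 1.21% in the d0 samples and 1.76%, 1.74% and 1.76% in the d28 samples. All d28 samples lay above all d0 samples by far more than the spread within either group, and the ratio of the means was 1.5. The windows rose by 0.47 to 0.77, with the largest value of 0.77 ± 0.03 (SE, edgeR, adjusted p = 3.41e-72) between 40 and 50 Mb. Of the 261 genes, 246 (94.3%) had a positive log2 fold change, 55 were called higher and none was called lower. Beyond 70 Mb the difference shrank to 0.27, 0.10, 0.04 and 0.12 in the successive windows. The share was 1.73%, 1.79% and 1.73% at d3 and 1.22%, 1.27% and 1.25% in Mock cells. Between d28 and d3 the 5 windows differed by -0.03 to 0.11, and none was called.

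A run of the opposite sign covered the end of the long arm of chromosome 1, from 180 Mb onwards, with 323 tested genes. Here the share was 2.75%, 2.81% and 2.74% at d0 and 2.12%, 2.13% and 2.14% at d28. The groups did not overlap, and the ratio of the means was 0.771. All 7 windows were called lower, from -0.18 ± 0.03 between 220 and 230 Mb to -0.55 ± 0.06 (SE) between 190 and 200 Mb. Of the genes, 275 (85.1%) had a negative log2 fold change, 34 were called lower and none higher. The next window towards the centromere, from 170 to 180 Mb, differed by 0.02 (adjusted p = 0.67). At d3 the share was 2.16%, 2.11% and 2.19%, close to that of d28. Mock cells had 2.65%, 2.69% and 2.74%.

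Chromosomes 17 and 22 were divided. On chromosome 17 the windows up to 20 Mb fell by 0.22 and 0.26, and those from 30 Mb to the end rose by 0.23 to 0.44. The 187 tested genes up to 20 Mb took 1.42%, 1.46% and 1.46% of counts at d0 and 1.17%, 1.16% and 1.17% at d28, with 14 genes called lower and none higher. The 555 genes from 30 Mb onwards had 15 called higher and none lower. Their mean share was 3.72% at d0, 4.41% at d28, 4.45% at d3 and 4.23% in Mock cells, so that d0 was the lowest group there. On chromosome 22 the windows between 20 and 50 Mb rose by 0.29 to 0.32. Their mean share was 1.71% at d0, 2.01% at d28, 2.02% at d3 and 2.03% in Mock cells, and d0 again was the lowest group. The last window, with 22 tested genes, fell by 0.40 ± 0.06 (SE, edgeR, adjusted p = 5.71e-09). None of these 22 genes was called alone, and 19 had a negative log2 fold change. Its share was 0.118%, 0.110% and 0.111% at d0 and 0.0812%, 0.0825% and 0.0820% at d28. At d3 it was 0.0838%, 0.0865% and 0.0819%, again near the values of d28.

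**Figure D3:**
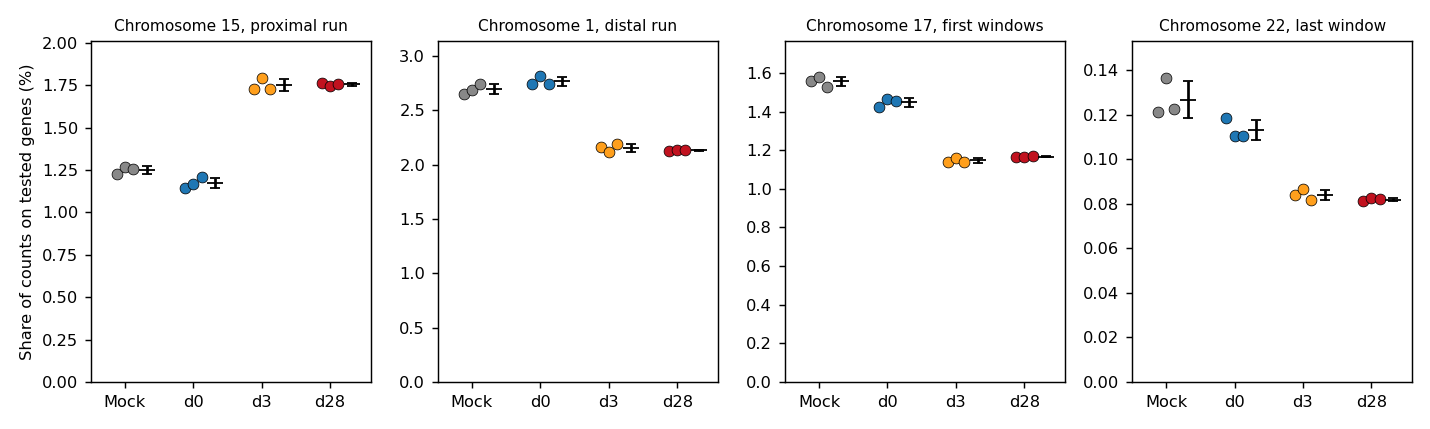
The y axis gives the share of the counts on tested genes that fell on each run of windows, in percent from 0, for the 12 samples by group, with mean and SD (n = 3) beside the points. In all 4 runs the d3 and d28 samples lie together and apart from d0 and Mock, upwards on chromosome 15 (1.75% against 1.17% at d0) and downwards in the other runs.

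The boundaries of these runs were chosen after the values were seen, and no test was made of a run as such. To ask which genes differed from their own surroundings, an alternative chosen after seeing the data removed from each gene the movement of its window, summed without that gene. It could be applied to the 13125 tested genes in a window, of which 21 were higher and 35 lower than their surroundings. Of the 151 higher and 207 lower genes of the comparison that lie in a window, 17 and 34 remained called. The other 1348 tested entries have no window to be compared with. None of the 55 genes on chromosome 15 remained called, and 1 of the 34 on chromosome 1 did. Of the 80 named genes that were called, 56 lost their call under this alternative, and values relative to the window are given below for some of them only.

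Among the genes in the chromosome 15 run was *KNL1*, a scaffold of the kinetochore. It had normalised read counts of 11.3, 15.8 and 9.14 at d0 and of 33.8, 35.7 and 43.5 at d28, a rise of 1.59 ± 0.29 (SE, edgeR, adjusted p = 1.1e-04). The groups were well apart. Relative to its window the difference was 0.91 (adjusted p = 0.15). *TTBK2*, a kinase needed for cilia, rose by 2.07 ± 0.42 from 4, 3 and 3 raw counts in the d0 samples (SE, edgeR, adjusted p = 9.8e-04). The calls of both genes held without each of the 6 samples. *CTDSPL2*, a phosphatase, rose by 1.26 ± 0.24 and *LRRC57* by 1.39 ± 0.28. The call of *CTDSPL2* was lost without d0 replicate 1 (adjusted p = 0.055) and that of *LRRC57* without d0 replicate 3 (adjusted p = 0.057).

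In the chromosome 1 run, *DESI2* had 153, 136 and 158 normalised read counts at d0 and 76.6, 77 and 70.5 at d28. The d28 samples lay close together and well below d0, with a fall of 0.98 ± 0.14 on the log2 scale (SE, edgeR, adjusted p = 1.2e-07). *EXO1*, an exonuclease of mismatch repair, fell by 0.86 ± 0.16 from 74.4, 77.5 and 83.6 to 41.2, 44.1 and 46.5. *RYR2*, a calcium release channel, fell by 1.01 ± 0.21, and *PTGS2*, the inducible cyclooxygenase, by 1.33 ± 0.26 (adjusted p = 3.5e-04, 0.0015 and 7.0e-04 for these 3 genes, edgeR). Relative to their windows the differences of *DESI2*, *EXO1*, *RYR2* and *PTGS2* were -0.49, -0.33, -0.58 and -0.96, with adjusted p of 0.085, 0.44, 0.21 and 0.061. In the chromosome 17 run the snoRNA entries *SNORD3A*, *SNORD3B-1* and *SNORD3B-2*, of the U3 family that processes ribosomal RNA, fell by 0.51, 0.52 and 0.52. They are near-identical copies, so reads may have been divided between them, and each call was lost without 1 or more libraries. Adjusted p was 0.080 for *SNORD3A* without d0 replicate 2 and 0.082 for *SNORD3B-1* without d28 replicate 2. For *SNORD3B-2* it was 0.071 without d0 replicate 2 and 0.062 without d28 replicate 2.

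Other genes stood apart from their neighbours. The fall with the smallest p-value was that of *PRDM9* (chr5:23507155-23528093), which encodes the methyltransferase that places meiotic recombination sites. Its normalised read counts were 227, 228 and 189 at d0 and 106, 104 and 96.0 at d28. All d28 samples lay at about the same level, far below d0. The log2 fold change was -1.05 ± 0.12 (SE, edgeR, adjusted p = 1.5e-12), and -1.06 relative to its window (adjusted p = 7.0e-12). At d3 the counts were 124, 141 and 124, and in Mock cells 191, 189 and 178.

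*TMEFF2* (chr2:191949046-192194933) encodes a transmembrane protein with follistatin-like domains. It had 51.7, 51.6 and 53.6 at d0 and 18, 16.8 and 22.5 at d28, a fall of 1.5 ± 0.22 (SE, edgeR, adjusted p = 3.6e-07). *RUNX1T1*, the corepressor ETO that is fused to *RUNX1* in another leukaemia, had 47.9, 31.6 and 24.8 at d0 and 12.2, 8.40 and 18 at d28. The d0 samples varied, but the groups did not overlap, and the gene fell by 1.55 ± 0.28 (adjusted p = 1.1e-04). *RUNX1* itself differed by -0.26 ± 0.20 (adjusted p = 0.56). The pseudogene *ZSWIM5P3* on chromosome 4 fell by 1.86 ± 0.31, from 27.7, 30.1 and 31.3 to 6.34, 9.10 and 10.5 (adjusted p = 2.2e-05). Mock cells had 14.0, 14.4 and 7.56 there, so that d28 lay near Mock and d0 above both. Relative to their windows, *TMEFF2*, *RUNX1T1* and *ZSWIM5P3* differed by -1.21, -1.52 and -1.67, all called.

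*FAM161B* and *COQ6*, an enzyme of coenzyme Q synthesis, lie side by side on chromosome 14 and their annotated ends overlap, so reads there cannot be assigned to either with certainty. *COQ6* had 107, 91.8 and 92.7 at d0 and 55.5, 50.4 and 55.5 at d28. It fell by 0.86 ± 0.15 and *FAM161B* by 1.08 ± 0.19 (SE, edgeR, adjusted p = 5.7e-05 for both). Both calls held relative to their window, at -0.80 and -1.01. *OLFML2A* on chromosome 9 fell by 1.34 ± 0.27 (adjusted p = 7.0e-04), and *TPBGL* on chromosome 11 by 1.44 ± 0.29 (adjusted p = 8.0e-04). Without d0 replicate 3, which had 52.2 normalised read counts against 26.5 and 23 in the other d0 samples, *TPBGL* was no longer called (adjusted p = 0.15). The entries *AL356512.1* and *AC005540.1*, which are without a position in the reference table, fell by 0.66 ± 0.12 and 1.00 ± 0.19, and could not be compared with neighbours. The entry *AC003681.1*, likewise without a position, rose by 0.76 ± 0.14 from 80.7, 74.6 and 52.2 to 120, 104 and 133 (adjusted p = 2.9e-04).

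Among gains apart from the neighbours, the long non-coding RNA gene *PRR34-AS1* (chr22:46053846-46058522) had 3, 2 and 1 raw counts in the d0 samples and 42, 26 and 11 in the d28 samples. Scaled to depth, d28 was 7.45-fold d0, with a 95% counting interval from 3.27 to 20.9 that covers counting error only (edgeR, adjusted p = 1.5e-05). Normalised read counts were 25.6, 21.0 and 19.3 at d3 and 3.10, 5.24 and 5.67 in Mock cells. The gene was therefore low in d0 and Mock samples and high in all d3 and d28 samples. *NT5C3A*, a pyrimidine nucleotidase on chromosome 7, rose by 1.46 ± 0.32 (adjusted p = 0.0027), but not without d0 replicate 1 (adjusted p = 0.061) or d0 replicate 3 (0.058). Relative to its window it differed by 1.56 (adjusted p = 0.0015).

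**Figure D4:**
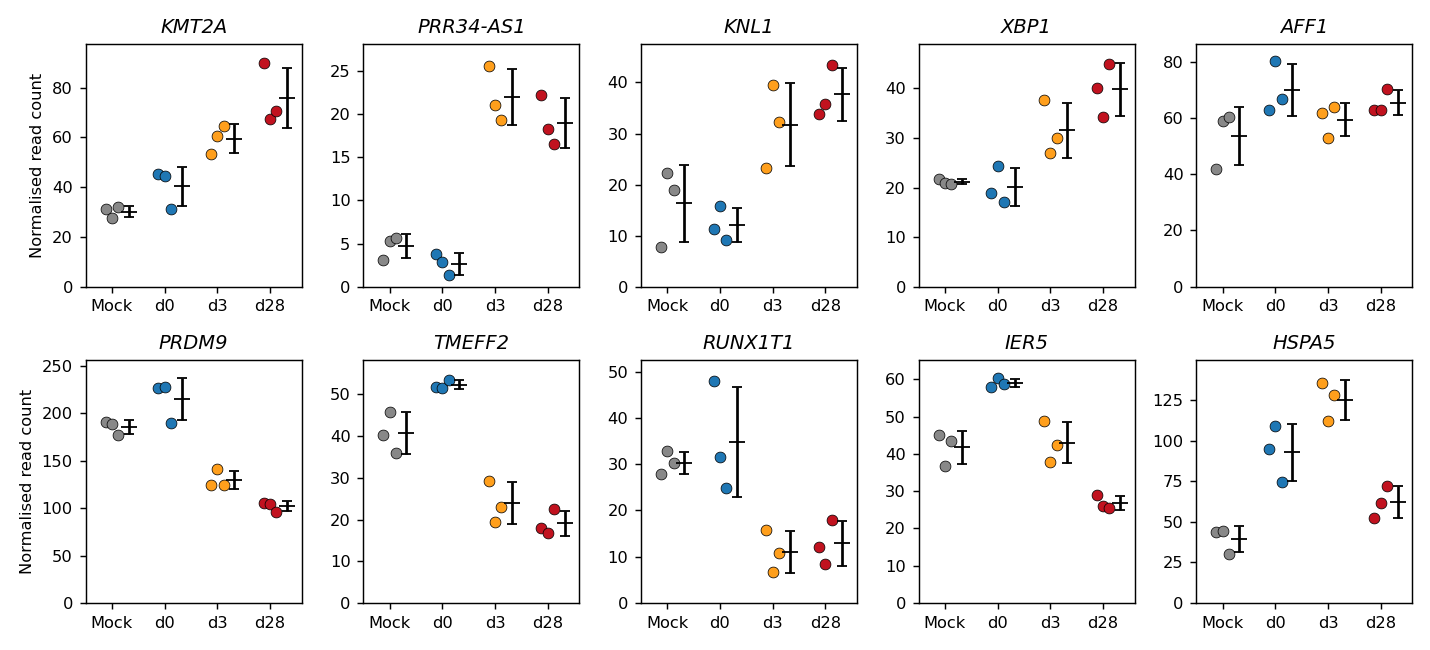
Normalised read counts (y axis, from 0) of 10 genes in the 12 samples by group, with mean and SD (n = 3) beside the points. *KMT2A* rises from 40.4 ± 7.85 at d0 to 75.8 ± 12.2 at d28 while *AFF1* overlaps, *PRDM9* and *TMEFF2* are low at d3 and d28, and *HSPA5* is highest at d3 and lower at d28 than at d0.

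The gains with the smallest p-values of all moved with the mitochondrial reads. *MIR6723*, a microRNA gene, had 614, 630 and 515 normalised read counts at d0 and 1744, 1376 and 1408 at d28. It rose by 1.37 ± 0.11 (SE, edgeR, adjusted p = 6.2e-22), and *AL669831.3*, an entry named after a clone, by 1.39 ± 0.12 (adjusted p = 2.5e-19). Neither entry has a position in the reference table, and neither was set aside as a nuclear copy. Divided by the counts on mitochondrially encoded genes, *MIR6723* had 1431 to 1538 counts (scaled per 1e+06 mitochondrial counts) at d0 and 1362 to 1416 at d28. *AL669831.3* had 4368 to 4501 and 4020 to 4297. On that scale both were slightly lower at d28, to 0.933 and 0.939 of d0, and over all 12 samples *AL669831.3* stayed between 4020 and 4614. *AC093809.1* rose by 2.27 ± 0.27 from 8.82, 14.3 and 10.4 to 69.2, 38.5 and 49.5 (adjusted p = 6.6e-11). On the mitochondrial scale it was still 1.67-fold d0, with 22.1 to 33.8 at d0 and 39.6 to 54.1 at d28 (exact permutation test, two-sided, p = 0.1, adjusted 0.129).

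**Figure D5:**
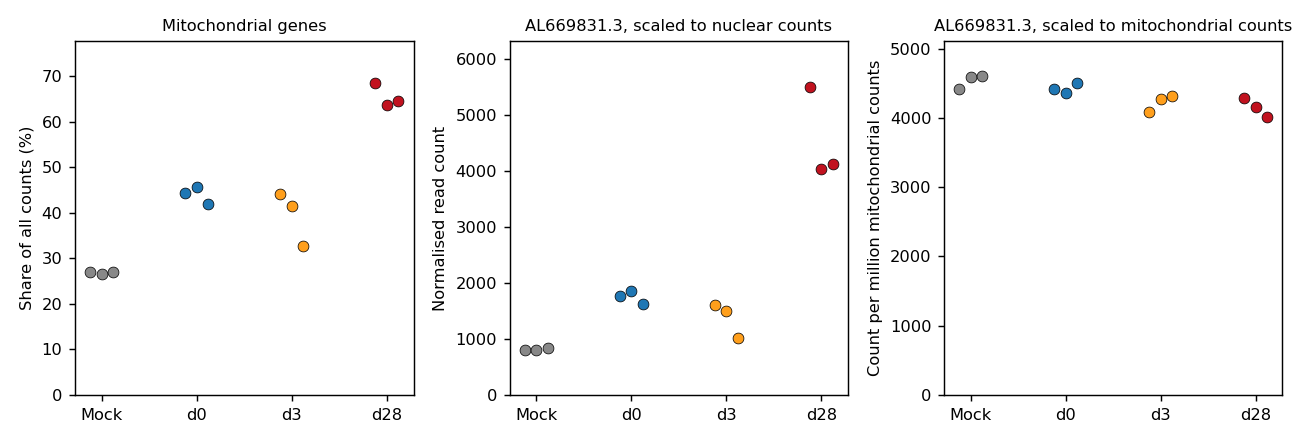
The 12 samples are shown by group, with the mitochondrial share of all counts in percent (left), the normalised read count of *AL669831.3* (middle) and its count relative to mitochondrial counts (right, scaled as in the text), all from 0. The share and the normalised read count are highest at d28, whereas on the mitochondrial scale all samples lie between 4020 and 4614.

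The unfolded protein response raises chaperones when proteins fail to fold in the endoplasmic reticulum, through the sensors ERN1, EIF2AK3 and ATF6 and the transcription factor XBP1. All 30 genes of the list were tested, 2 were called higher and 2 lower, against 1.17% and 1.65% of all genes, and the median log2 fold change was 0.02. *HSPA5*, the main chaperone of this compartment (BiP), had 94.5, 109 and 74.5 normalised read counts at d0 and 52.3, 61.6 and 72.0 at d28. The highest d28 sample lay just below the lowest d0 sample, and the fall was 0.64 ± 0.15 (SE, edgeR, adjusted p = 0.0076). It was lost without d0 replicate 2 (adjusted p = 0.13) and without d28 replicate 1 (0.14), and also with DESeq2 (0.062), without a filter on low counts (0.079) and with counts thinned to the lowest total (0.16). At d3 *HSPA5* stood at 135, 112 and 128, and it fell from there to d28 by 1.08 (adjusted p = 3.1e-11). In Mock cells it was 43.5, 44.6 and 30.2, the lowest of the 4 groups.

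*XBP1* had 18.9, 24.4 and 17 at d0 and 40.2, 34.3 and 45 at d28 without overlap, and rose by 0.96 ± 0.24 (SE, edgeR, adjusted p = 0.013). Its call was lost without d0 replicate 1, d0 replicate 3 or d28 replicate 1 (adjusted p = 0.072, 0.096 and 0.066). *XBP1* lies between 20 and 50 Mb of chromosome 22, where the windows rose. Relative to its window it differed by 0.73 (edgeR, adjusted p = 0.16). *PDIA3*, a disulfide isomerase, rose by 1.51 ± 0.37 (adjusted p = 0.0092) from 6.30, 4.30 and 10.4 to 19.5, 19.6 and 24.0. It lies in the chromosome 15 run, differed by 0.83 relative to its window (adjusted p = 0.39), and was not called without d0 replicate 1 (0.063) or d0 replicate 2 (0.093). *CRELD2*, a secreted chaperone of the same response, fell by 0.71 ± 0.20 (adjusted p = 0.028) and was not called when any 1 of the 6 samples was left out (adjusted p from 0.055 to 0.14). Its promoter, at chr22:49918384-49918683, lies just before the 50 Mb end of the windows that rose. The next window, the last of chromosome 22, fell by 0.40. Relative to its own window *CRELD2* differed by -0.95 (edgeR, adjusted p = 0.0025), and it was not compared with the genes beyond 50 Mb. None of the 8 genes of the degradation branch was called.

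*HSPA5*, *XBP1* and *CRELD2* are shown with their promoters because they share a stress element while their counts moved in different directions. The element is CCAAT, then 9 bases of any kind, then CCACG, searched on both strands in the 300 bases from 250 before to 50 after the gene start (RefSeq, GRCh38.p14). It was present in 27 of 35116 promoters (0.0769%) and in 7 of the 27 genes of the list with a promoter in that table. Its letters are in capitals. The *HSPA5* promoter is at chr9:125241294-125241593 on the minus strand, that of *XBP1* at chr22:28800520-28800819 on the minus strand and that of *CRELD2* at chr22:49918384-49918683 on the plus strand, where the match is on the opposite strand.
HSPA5: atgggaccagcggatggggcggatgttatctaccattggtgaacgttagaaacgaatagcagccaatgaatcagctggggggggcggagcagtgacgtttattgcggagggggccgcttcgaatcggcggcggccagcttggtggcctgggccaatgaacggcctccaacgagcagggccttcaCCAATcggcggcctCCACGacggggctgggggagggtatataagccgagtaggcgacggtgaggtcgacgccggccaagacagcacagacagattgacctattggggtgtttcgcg
XBP1: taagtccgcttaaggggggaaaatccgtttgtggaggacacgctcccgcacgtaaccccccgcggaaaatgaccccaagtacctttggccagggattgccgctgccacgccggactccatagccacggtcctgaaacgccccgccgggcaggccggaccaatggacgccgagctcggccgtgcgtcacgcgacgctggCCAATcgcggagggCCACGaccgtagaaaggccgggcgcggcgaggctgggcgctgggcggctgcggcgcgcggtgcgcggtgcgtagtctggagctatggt
CRELD2: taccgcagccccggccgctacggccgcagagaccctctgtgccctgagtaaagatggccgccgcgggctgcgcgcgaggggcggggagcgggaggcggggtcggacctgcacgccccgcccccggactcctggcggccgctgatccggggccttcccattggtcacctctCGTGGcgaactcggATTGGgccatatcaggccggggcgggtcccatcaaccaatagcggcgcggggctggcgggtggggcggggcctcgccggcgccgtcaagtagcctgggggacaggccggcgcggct
The other genes of the list with the element were *HSP90B1*, *CALR*, *CANX* and *PDIA6*, with log2 fold changes of 0.04, -0.30, -0.11 and -0.65, none of them called (adjusted p from 0.21 to 0.93). The counts are 1 value per gene entry, so no value belongs to the promoter alone.

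Immediate early genes answer growth factors and stress within minutes. Of 24 in the list, 23 were tested, none was called higher and 5 were called lower, against 1.65% of all genes, with a median log2 fold change of -0.22. *IER5* had 58.0, 60.2 and 58.8 normalised read counts at d0 and 29.1, 25.9 and 25.5 at d28. Both groups were tight and far apart, and the gene fell by 1.11 ± 0.19 (SE, edgeR, adjusted p = 5.7e-05). It lies in the chromosome 1 run and fell by 0.74 relative to its window (adjusted p = 0.044). At d3 it was 48.9, 37.8 and 42.4, between d0 and d28. *CTGF* (CCN2), which encodes a matricellular growth factor, had 37.8, 31.6 and 41.8 at d0 and 17.4, 18.9 and 12 at d28, a fall of 1.13 ± 0.25 (adjusted p = 0.0034). Mock cells had 15.5, 17 and 28.3, so d0 was the highest group. Both calls held without each of the 6 samples.

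*JUN*, a subunit of the transcription factor AP-1, fell by 0.43 ± 0.11 (SE, edgeR, adjusted p = 0.021), from 208, 215 and 217 to 163, 147 and 168. *KLF4* and *ATF3*, also transcription factors, fell by 0.85 ± 0.26 (adjusted p = 0.046) and 0.70 ± 0.22 (adjusted p = 0.050, just under the threshold). *ATF3* lies in the chromosome 1 run and differed by -0.28 relative to its window (adjusted p = 0.66). These 3 calls did not hold when samples were left out. *JUN* was called without d28 replicate 3 and lost without each of the other 5 samples (adjusted p from 0.060 to 0.13). *KLF4* and *ATF3* were lost without any 1 of the 6 samples (adjusted p from 0.053 to 0.19 and from 0.060 to 0.23). The other AP-1 and early growth response genes were not called, with -0.25 ± 0.27 for *FOS*, 0.36 ± 0.27 for *JUNB* and -0.20 ± 0.35 for *EGR1*.

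The *CTGF* promoter is shown because it carries the short site of the TEAD factors, GGAATG, 3 times, marked in capitals. The site was searched on both strands and is common in these 300 bases, found in 14.0% of promoters, with 3 or more matches in 45 of 35116 (0.128%). The promoter is at chr6:131951323-131951622 on the minus strand (RefSeq, GRCh38.p14).
CTGF: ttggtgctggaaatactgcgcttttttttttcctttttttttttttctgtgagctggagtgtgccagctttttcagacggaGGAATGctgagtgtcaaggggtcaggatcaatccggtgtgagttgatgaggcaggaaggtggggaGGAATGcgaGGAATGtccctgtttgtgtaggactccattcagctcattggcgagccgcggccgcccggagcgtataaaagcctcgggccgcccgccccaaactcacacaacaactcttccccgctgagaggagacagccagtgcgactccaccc
A match is a description of the letters and says nothing of what bound there.

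MLL and its relatives place methyl groups on lysine 4 of histone H3. Of 6 methyltransferases, *KMT2A* and *KMT2C* were called higher, and of 13 shared subunits and partners none was called, against 1.17% of all genes higher and 1.65% lower. *KMT2C* had 47.9, 15.8 and 26.1 at d0 and 47.0, 46.2 and 61.5 at d28. Its groups overlapped at d0 replicate 1, and the rise of 0.69 ± 0.21 (SE, edgeR, adjusted p = 0.048) was called without that sample only and lost without each of the other 5 (adjusted p up to 0.42). *MEN1*, the adaptor of MLL on chromatin, differed by 0.06 ± 0.16. In the AF4 family and the elongation complex, 24 genes were tested and 1 was called, lower, against 1.65% of all genes. It was *ELL2*, an elongation factor, which fell by 0.61 ± 0.17 (adjusted p = 0.023). Relative to its window *ELL2* differed by -0.39 and was not called. The call of *ELL2* was lost without 4 of the 6 samples, d0 replicates 1 and 2 and d28 replicates 1 and 2 (adjusted p = 0.16, 0.098, 0.15 and 0.084).

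Of 37 tested *HOX* genes and cofactors, the best known targets of MLL fusions, *HOXB13* alone was called, against 1.17% of all genes higher and 1.65% lower. It rose by 0.99 ± 0.27 (SE, edgeR, adjusted p = 0.025), and the call was lost without any 1 of the 6 samples (adjusted p from 0.051 to 0.11). *HOXA9* and *MEIS1*, which mark this leukaemia, differed by 0.46 ± 0.19 (adjusted p = 0.19) and -0.11 ± 0.14 (0.79). The medians were -0.17 in the *HOXA* cluster, 0.24 in *HOXB*, 0.09 in *HOXC* and 0.04 in *HOXD*, and the *HOXB* cluster lies on the part of chromosome 17 that rose. Of 18 tested leukaemia targets, *RUNX1T1* and *ZEB2* were called lower and none higher, against 1.65% and 1.17% of all genes. *ZEB2*, a repressor of transcription, fell by 0.48 ± 0.12 (adjusted p = 0.0093), from 176, 188 and 172 to 131, 131 and 120, and not without d0 replicate 2 or d28 replicate 1 (adjusted p = 0.071 and 0.053). In Polycomb complexes, which silence developmental genes, 1 of 28 genes was called, higher, against 1.17% of all genes. It was the PRC2 subunit *RBBP4*, which rose by 0.71 ± 0.17 (adjusted p = 0.0057) and not without d0 replicate 1 (0.076). Relative to its window *RBBP4* differed by 0.55 and was not called.

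Sterol synthesis had 2 lower genes among 19 tested, against 1.65% of all genes, the regulators *INSIG1* (-0.76 ± 0.20) and *SREBF1* (-0.63 ± 0.18; SE, edgeR, adjusted p = 0.020 and 0.035). *INSIG1* was called without d28 replicate 3 only, and the call of *SREBF1*, in the chromosome 17 run, was lost without any 1 of the 6 samples (up to 0.12). In mitochondria-related lists, 3 of 64 genes of the mitochondrial ribosome were called higher, against 1.17% of all genes (*MRPS34*, *MRPL45* and *MRPS15*, by 1.37, 0.84 and 1.25) and *GABPA*, a regulator among 21 genes for mitochondrial DNA, was called lower by 0.56. None of 69 genes of the respiratory chain was called, with a median of 0.04. *MRPS34* was not called without d0 replicate 2 (adjusted p = 0.12), *MRPL45* and *MRPS15* were lost without 5 of the 6 samples each (adjusted p up to 0.15 and 0.24) and *GABPA* without any 1 of them (up to 0.16). Relative to their windows, *MRPS34*, *MRPL45*, *MRPS15* and *GABPA* differed by 1.17, 0.48, 1.09 and -0.51, and none was called. Of the 76 tested genes with a symbol of ribosomal proteins, 1 was called, higher, against 1.17% of all genes. It was *RPS27L* on chromosome 15, higher by 0.87 ± 0.21, and not called without d0 replicate 2, d0 replicate 3 or d28 replicate 1 (adjusted p = 0.073, 0.052 and 0.065).

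Zinc finger genes had 5 higher and 4 lower members among 278 tested, near the background shares, with a median of 0.07. Adhesion genes had 1 lower member of 26 tested, against 1.65% of all genes. It was the cadherin *CDH12* (-0.71 ± 0.22, adjusted p = 0.047, edgeR), called without d0 replicate 1 only. Of 22 tested genes of calcium and G-protein signalling, *RYR2* was called lower and *RYR3* higher, against 1.65% and 1.17% of all genes. *RYR3*, in the chromosome 15 run, rose by 1.20 ± 0.35 (adjusted p = 0.035), a call lost without any 1 of the 6 samples (up to 0.25). No member was called by edgeR among 17 ATF4 targets, 16 heat shock genes, 27 cell cycle genes, 12 p53 targets, 20 genes of glycolysis and hypoxia, 10 innate immune genes, 18 fragile-site genes, 38 histone genes and 4 ribosomal DNA entries. Their medians ran from -0.18 to 0.15. The other tested genes of a short list taken from the paper and its supplementary files were not called. Their log2 fold changes were -0.01 ± 0.17 for *MIF*, -0.05 ± 0.24 for *FHOD3*, 0.30 ± 0.31 for *PPIE* and the value of *RUNX1* given above.

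Over all genes tested, 1.17% were higher and 1.65% lower. By gene type, 141 of 12122 protein-coding genes were higher and 186 lower (1.16% and 1.53%), with a median of 0.01. Of 1257 entries named after clones, taken as the non-annotated class, 15 were higher and 30 lower. Of 568 other long non-coding genes 9 were higher and 10 lower, and of 157 long intergenic RNA genes none and 4. Of 242 pseudogenes 1 was higher and 4 lower, of 14 microRNA genes 1 and 1, and of 5 small nucleolar RNA genes none and 4. The 4 small nucleolar entries are the neighbouring copies on chromosome 17 described above and *SNORD3C*. Gene length made little difference, with medians of 0.01, 0.02 and -0.01 in the shortest, middle and longest genes when the 13155 with a position were divided equally by length. Among whole chromosomes, the medians of 19 and 22 were 0.24 and 0.18, with 21 genes called higher and 1 lower on chromosome 19, and those of 4, 5 and 8 were -0.15, -0.11 and -0.12. On chromosome 19 the share of counts was 4.49%, 4.56% and 4.58% at d0, 5.34%, 5.32% and 5.34% at d28, and 5.08%, 5.22% and 5.16% in Mock cells, so that d0 was the lowest group there.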

How the data were processed

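ATAC-Seq libraries of 12 HEK293T samples were compared, 3 each of Mock, d0, d3 and d28. The authors deposited raw read counts per gene entry (whole numbers, not normalised). The submitters' processing notes name bcl2fastq, Bowtie2, HTSeq and GRCh38, and their versions are not given in the sources used here. The table holds 1 value per gene entry, and whether reads were counted over exons or over the whole gene is not given in the sources used here. The labels' extraction text also mentions a purification of RNA, whereas molecule and library source are given as genomic DNA, and the counts were treated as ATAC-Seq reads.

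Entries of the mitochondrial genome and of its nuclear copies were removed before scaling, and genes with a mean raw count of at least 10 over the 6 samples of d0 and d28 were kept. edgeR 4.0.16 (R 4.3.3) was run with TMM factors, a quasi-likelihood fit over all 12 samples and Benjamini-Hochberg adjustment over all genes tested, with a threshold of 0.05. DESeq2 1.42.0, named in the study's methods, was an alternative. The same test was applied to counts summed over 10 Mb windows with at least 5 tested genes. Single values per sample were compared by exact permutation tests. Positions and promoters came from RefSeq GRCh38.p14 and were matched by symbol, with a position for 13155 of 14473 genes. A check on promoter GC was void, since 73.0% of genes had a promoter sequence. The scripts were tested on simulated data.

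Named genes were *KMT2A* and *AFF1*, the 10 smallest p-values and the 5 largest changes (mean raw count of 20 or more) in each direction among called genes, up to 4 called members per list, a short list of genes taken from the paper and its supplementary files and up to 3 genes per described window. *SNORD3C* and the uncalled list members given with values were chosen outside this rule, after their values were seen. The members and lists were chosen with earlier results of these data known. Alternatives covered scaling, filters, samples, thinning, gene length, window size, the replicate block and leaving out each sample. Total counts were 648466 to 715327 per d0 sample and 1058754 to 3539937 per d28 sample. The labels call the replicates biological, and p-values measure only the spread between these samples, which may be partly technical. Chi-square per degree of freedom between pairs of replicates was 1.05 to 1.07 at d0 and 1.08 to 1.14 at d28. The replicates thus differed by little more than counting error, and the p-values may not cover the spread between independent cultures.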

Additional observations from a re-analysis of the deposited data

Results flagged for a closer look

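Mitochondrial sequences were left out of the comparison, and both of their shares were higher in every d28 sample than in every d0 sample. The share of counts on mitochondrially encoded genes was 65.5% ± 2.61 (SD, n = 3) at d28 and 44.0% ± 1.83 at d0. The share on nuclear copies of mitochondrial genes was 6.11% ± 0.236 (SD, n = 3) at d28 and 4.08% ± 0.182 at d0. Both exact permutation tests (two-sided) gave p = 0.1, the smallest these samples allow, and 0.129 after adjustment over 9 measures.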

How the results depend on the processing

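Against 169 higher and 239 lower genes and 71 higher and 69 lower windows, DESeq2 called 11 and 33 genes and 43 lower windows. Without a filter on low counts 110 and 58 of 52440 genes were called, and with counts thinned to the lowest total 36 and 41 of 9055 genes and 44 lower windows. Scaling by library sizes only gave 45 higher and 106 lower windows, and windows of 5 Mb gave 111 higher. The window offset, chosen after seeing the data, left 31 and 55 genes, entries without a window included unadjusted. Leaving out 1 of the 12 samples gave 46 to 187 higher and 57 to 270 lower genes, 63 to 77 higher and 53 to 71 lower windows. The other settings stayed within 1.5 times. Deviations of samples with the same replicate number were not correlated (0.01, -0.0096 and 0.0033). Replicates differed by little more than counting error, so these correlations cannot show whether the samples were paired. The replicate block called 124 and 180 genes and 70 and 61 windows. Of the 80 called genes named by the rule, 9 lost their call under the block. Genes that changed sign were never called. *MIF* was at 0.015 under the block, 0.067 without the filter, 0.046 when thinned and 0.041 with a gene length offset. *FHOD3* was at 0.034 without the filter, 0.21 when thinned, 0.0088 with the length offset and 0.037 with the window offset, and *AFF1* at 0.023 with the window offset. When 1 sample was left out, *MIF* ran from -0.090 to 0.11, *FHOD3* from -0.094 to 0.040, *EYA1* from -0.59 to 0.031, *COL1A1* from -0.19 to 0.41 and *PPIE* from -0.029 to 0.43. Fewer genes were tested in the thinned counts and more without the filter, and the cause of the other shifts was not tested. The ratio of total counts, d28 over d0, was 2.41 to 4.25 when 1 sample was left out. A count of 0 in a d28 sample allows a share of up to 9.60e-04% of counts outside mitochondrial sequences.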
